A study of Mus musculus with 2 samples.

Results

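Endocardial endothelial cells, the cells that line the inner surface of the heart chambers, were picked from 2 single-cell RNA libraries of mouse heart. The choice used a rule on raw UMI counts (unique molecular identifiers, each standing for 1 captured transcript). A barcode was kept when it had at least 200 detected genes, under 0.6% of its UMIs in the muscle genes Ryr2 and Myh6, at least 3 UMIs in Npr3, Tmem108 and Smoc1 together, at least 1 UMI in Pecam1, Emcn, Tie1, Egfl7 and Vwf together, and at most 1 UMI in each of a fibroblast set (Pdgfra, Col1a2, Col3a1) and a lymphatic set (Reln, Mmrn1, Ccl21a, Prox1). It gave 427 of 19865 barcodes, of which 161 of 9934 were in the Sham library and 266 of 9931 in the TAC library.

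Both libraries came from hearts of C57BL/6 mice, and no deleted or added gene is named in the labels. For TAC (transverse aortic constriction, a tied narrowing of the aortic arch that overloads the left ventricle), male mice had surgery at 8 weeks of age and were followed for 6 weeks. The Sham labels describe the same operation without the constriction, while the design text speaks of uninjured mice, and neither states the age or sex of the Sham mice. Single-cell suspensions of 3 to 5 hearts were joined into 1 library a group, so the spread between hearts was not measured, no test between groups was possible, and every 95% interval below covers counting error only.

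The endocardium is a specialised endothelium that separates the blood in the chambers from the heart muscle. It sends signals such as neuregulin and endothelin to the muscle, binds natriuretic peptides through the clearance receptor Npr3, and gives rise in the embryo to the mesenchyme of the valves. Unlike the capillaries of the heart wall, it is not the main site where fatty acids pass from blood to muscle.

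The Sham library held 28146691 UMIs and the TAC library 29108986, with medians of 1964 and 2143 UMIs per barcode. The endocardial cells summed to 311873 UMIs in Sham and 609820 in TAC, with medians of 1702 and 2148 UMIs per cell. Levels below are UMIs of a gene per 1000000 UMIs of the cells named (counts scaled to CPM). Endocardial cells were compared with the other endothelial cells of the same library, 1304 in Sham and 1632 in TAC, which met the same limits with no UMI of Npr3, Tmem108 or Smoc1 and at least 3 UMIs of the endothelial set. These had lower medians of 1243 and 1299 UMIs per cell, and a cell needs depth to reach 3 marker UMIs. The 2 libraries shared 32 barcode sequences, of which 1 was endocardial in TAC and 0 in both.

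The values that chose the cells are given as a description. Npr3 stood at 1831 CPM in Sham and 1973 in TAC, Tmem108 at 4348 and 4734, and Smoc1, a secreted calcium-binding matrix protein, at 523 and 556. The sum of the 3 had a median of 11 UMIs a cell in Sham (range 3 to 60) and 13 in TAC (3 to 87). All 3 genes were detected in 37.9% of the Sham cells and 43.2% of the TAC cells, and 1 of the 3 in 19.9% and 16.5%. Vwf, the blood clotting factor stored in endothelial granules, was used only within the endothelial sum. It stood at 962 CPM in Sham and 1236 in TAC, against 123 CPM in the other endothelial cells of either library.

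Few cells lay just inside or just outside the threshold, and genes the rule did not use differed in how they separated there. The 11 Sham cells with exactly 3 marker UMIs held Cdh11 at 654 CPM, and the 18 barcodes with 2 marker UMIs, just outside, at 574, against 183 CPM in 64 barcodes with 1. Rasgef1b and Chrm3 separated more in Sham, at 1831 CPM and 1308 CPM with 3 marker UMIs and 497 CPM and 612 CPM with 2. In TAC the Cdh11 values were 752 CPM in 12 cells with 3 marker UMIs and 889 CPM in 20 barcodes with 2, against 39.0 CPM in 104 barcodes with 1. Rasgef1b was at 926 CPM with 3 marker UMIs and 635 with 2 in TAC, but Chrm3 was lower inside the rule, at 347 and 609. Cd36, a capillary gene, was at 196 CPM with 3 and 1262 with 2 in Sham, and in the opposite order in TAC, at 1215 and 355. When the endothelial cells were clustered without the rule genes, 152 of 161 Sham cells (94.4%) and 250 of 266 TAC cells (94.0%) fell in 1 of 14 clusters, led by Cdh11, Rasgef1b, Nrg1, Chrm3 and Epha7. The same cluster held 21 of 82 Sham and 22 of 124 TAC barcodes with 1 or 2 marker UMIs, but 9 of 1304 and 10 of 1632 with none. Most of the remaining cells lay in clusters led by macrophage, pericyte, fibroblast, mesothelial or B-cell genes. With Tmem108 and Smoc1 alone as the marker rule, Npr3, then independent of the choice, stood at 1789 CPM in Sham and 1963 in TAC.

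Endocardial cells made up 1.62% of Sham barcodes (95% Clopper-Pearson interval 1.38 to 1.89) and 2.68% of TAC barcodes (2.37 to 3.02). The share was 1.65 times as large in TAC (1.35 to 2.02). Within the endocardial and other endothelial cells together the shares were 11.0% of 1465 (9.43 to 12.7) and 14% of 1898 (12.5 to 15.7), a ratio of 1.28 (1.05 to 1.56). Both intervals lie above 1, but with 1 library a group they do not show that the condition differs. With every barcode thinned at random to 1000 UMIs before the rule was applied, the Sham share was 1.44% in both of 2 draws, and the TAC share was 2.56% in 1 draw and 2.61% in the other.

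**Figure D1:**
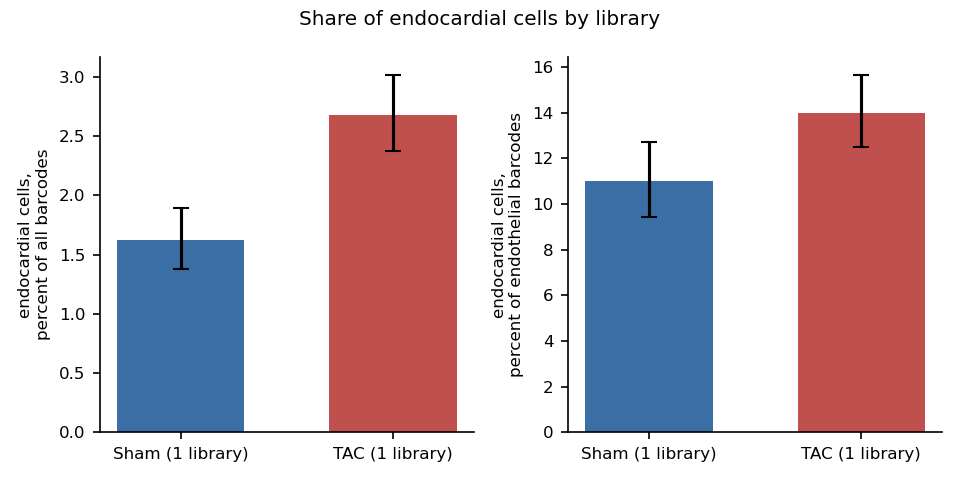
Bars give the percent of barcodes that were endocardial in the Sham and TAC libraries, of all barcodes with at least 200 genes on the left and of endothelial barcodes on the right, with 95% Clopper-Pearson intervals. The TAC bar is higher in both panels, and each group is 1 library.

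Genes that the rule did not use set the endocardial cells far apart from the other endothelial cells. Of 7335 genes with at least 40 UMIs over both cell groups in each library, 367 (5.00%) were at least 2-fold higher in endocardial cells in both libraries and 632 (8.62%) at least 2-fold lower. The median gene had a log2 ratio of -0.06 in Sham and -0.09 in TAC. The 15 genes with the highest ratios, ranked by the smaller of the 2 libraries, were Nrxn3, Nrg1, Rasgef1b, H19, Cdh11, Col23a1, Gpm6a, Chrm3, Plagl1, Tuft1, Epha7, Ahsg, Col4a3, Ncam1 and Greb1l, each at least 36.5-fold higher in either library.

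Several of the 15 are adhesion or receptor genes better known from nerve cells. Nrxn3, a neurexin of synapses, stood at 391 CPM in Sham (122 UMIs) and 518 in TAC (316 UMIs), against 2.73 and 4.18 in other endothelial cells. Gpm6a, a neuronal membrane glycoprotein, stood at 263 and 458 CPM against 3.82 and 1.25. Chrm3, a muscarinic acetylcholine receptor, reached 2254 and 2291 CPM against 33.8 and 22.1. Lymphatic endothelial cells also held Chrm3 at 638 and 691 CPM and Gpm6a at 513 and 619. Epha7, an ephrin receptor, was at 824 and 974 CPM in endocardial cells and at 0 in the lymphatic cells of both libraries. Cdh11, a cadherin of mesenchymal cells, stood at 1764 and 2038 CPM against 15.3 and 28.0 in other endothelial cells and 28.5 and 30.1 in fibroblasts.

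H19, an imprinted long noncoding RNA, had 42 UMIs in the Sham and 56 in the TAC endocardial cells and 0 in the other endothelial cells of both libraries. Against a floor of 3 UMIs for the whole comparison group, this was at least 82.2-fold higher in Sham and at least 73.3-fold higher in TAC. Plagl1, an imprinted zinc finger gene, stood at 164 and 149 CPM against 2.73 and 2.09. Col4a3, a collagen IV chain of specialised basement membranes, was at 478 and 408 CPM against 12.6 and 10.0, although fibroblasts held it at 218 and 186.

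The 10 genes with the lowest ratios were Shtn1, Efr3b, Dipk2b, Oas2, Fam102a, Rflnb, Nav3, Pcdh17, Depp1 and Ifi203-ps. Nav3, a microtubule-binding protein, stood at 38.5 CPM in Sham and 39.4 in TAC endocardial cells, against 885 and 900 in other endothelial cells. Pcdh17, a protocadherin, had 1 UMI in Sham and 6 in TAC endocardial cells, against 201 and 218 CPM.

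**Figure D2:**
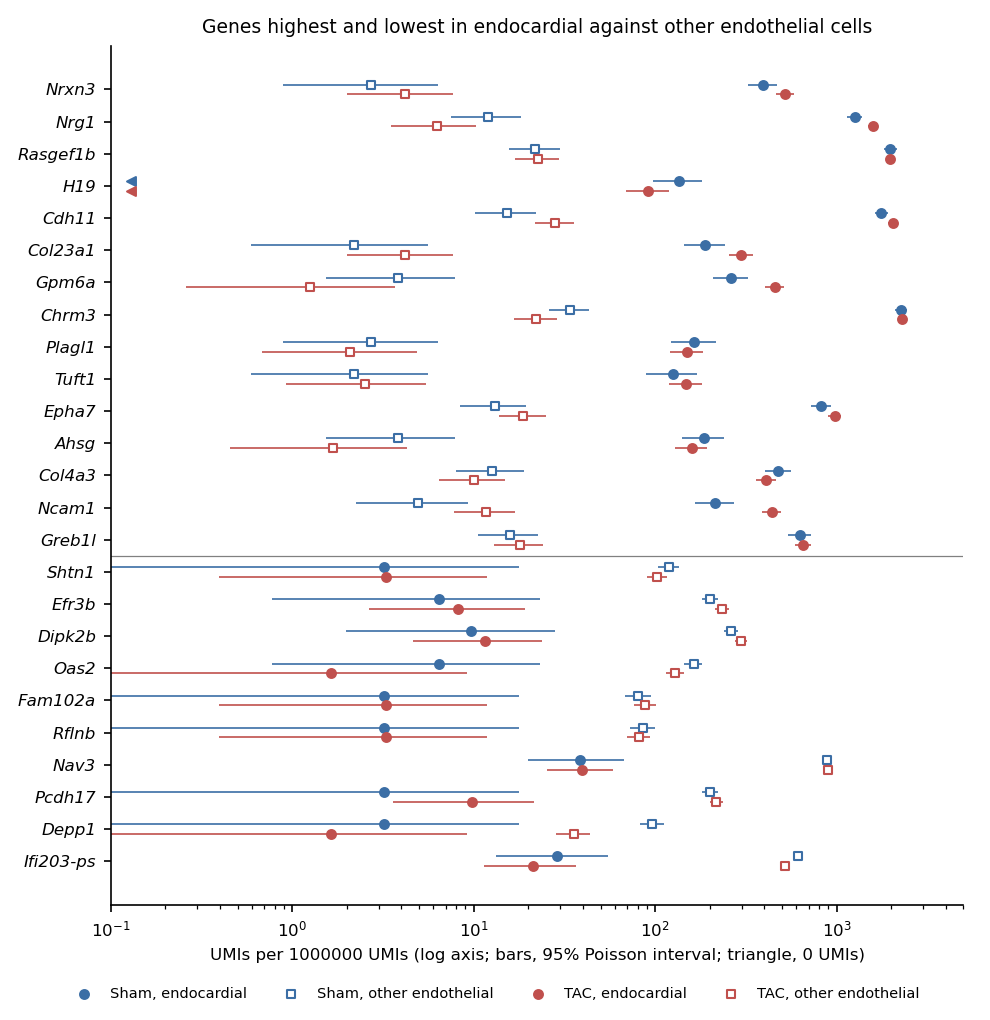
Levels in UMIs per 1000000 UMIs (log axis) of the 15 genes highest and 10 lowest in endocardial (filled) against other endothelial cells (open), for Sham in blue and TAC in red, with 95% Poisson intervals that may run below the axis. Filled and open points lie apart for every gene in both libraries, and the triangles mark 0 UMIs of H19 in the other endothelial cells.

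Most of the known endocardial genes outside the rule were higher. Of the 20 on that list, 15 passed the filter, and 12 of these were at least 2-fold higher in both libraries while 1, Nrp2, was lower. For this list and those below, the shares over all tested genes were 5.00% higher and 8.62% lower in both libraries. Their median log2 ratio was 3.75 in Sham and 3.77 in TAC, and the endocardial label was kept. Cgnl1, a junction protein, stood at 2437 and 2463 CPM against 181 and 164. Pkhd1l1, a large membrane protein, stood at 366 and 574 CPM against 20.7 and 23.4. Both GATA factor genes of heart development were also higher. Gata4 was at 237 and 367 CPM against 38.2 and 27.6, and Gata6 at 285 and 303 against 29.5 and 48.5. Mgp, an inhibitor of calcification, was 4.66-fold and 5.12-fold higher. Bmp6, also on the list, was not, at 914 and 1102 CPM against 1248 and 1222. Nfatc1, the calcium-responsive factor of valve formation, stood at 144 and 149 CPM against 137 and 108, so neither library reached a 2-fold difference.

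Capillary and fatty acid genes were low. Of the 16 capillary genes, all tested, 15 were at least 2-fold lower in both libraries and 0 higher, with median log2 ratios of -3.00 and -3.45. Cd36, the fatty acid translocase, stood at 356 CPM in Sham and 272 in TAC, against 2458 and 2291. Fabp4, a fatty acid binding protein, stood at 192 and 223 CPM against 1545 and 1407. Fatty acid uptake genes, of which 9 of 11 were tested, were lower in both libraries for 7 genes, all but Pparg also on the capillary list. The exception among fatty acid binding proteins was Fabp5, at 173 and 159 CPM against 79.7 and 85.6, a ratio of 2.17 in Sham and 1.86 in TAC. Pparg, the nuclear receptor of lipid storage, had ratios of 0.0291 and 0.0659.

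Markers of arteries and veins split. Of 11 tested arterial genes (15 listed), 7 were at least 2-fold lower in both libraries and 1 was higher. The higher one was Bmx, an endothelial tyrosine kinase, at 471 CPM in Sham and 461 in TAC, against 27.8 and 27.2. Of 7 tested venous genes (11 listed), 4 were higher and 0 lower. Vcam1, a leukocyte adhesion molecule and 1 of the 4, stood at 247 and 279 CPM against 28.9 and 54.7. Of the 14 pan-endothelial genes 10 were tested, and 7 were lower in both libraries, among them Cdh5, Cldn5 and Esam of the cell junctions. The other 4 were left out as rule genes, with Pecam1 and Emcn higher and Tie1 and Egfl7 lower in endocardial cells. All 14 summed to 8731 CPM in Sham and 8903 in TAC, against 10459 and 11173. Eng, a TGF-beta co-receptor, had ratios of 1.89 and 1.65, and Erg, an endothelial transcription factor, 0.979 and 0.948.

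Of 10 tested natriuretic peptide and cyclic GMP genes (14 listed), 4 were higher in both libraries and 1, the phosphodiesterase gene Pde2a, was lower, with median log2 ratios of 0.86 and 1.09. Prkg1, the cyclic GMP-dependent kinase, stood at 6907 CPM in Sham and 6151 in TAC, against 391 and 542. Pde3a, a phosphodiesterase that cyclic GMP inhibits, was 13.3-fold and 11.2-fold higher. Gucy1b1, a subunit of the nitric oxide receptor, stood at 106 and 133 CPM against 22.9 and 27.6. Nos3, the endothelial nitric oxide synthase, was 2.30-fold higher in Sham and 1.71-fold in TAC. Npr1, the signalling receptor of the natriuretic peptides, was at 96.2 and 107 CPM against 157 and 136.

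Among 11 tested genes for signals to the heart muscle (20 listed), 4 were higher and 4 lower in both libraries. Nrg1, the neuregulin ligand of ErbB receptors, stood at 1257 CPM in Sham and 1594 in TAC, against 12 and 6.27. Its ratio was 105 (68.2 to 169) in Sham and 254 (154 to 456) in TAC. Ece1, which cleaves endothelin to its active form, was at 616 and 553 CPM against 119 and 128. Inhba, an activin subunit, was at 157 and 189 CPM against 7.1 and 5.43, but 1 cell held 33% of its Sham UMIs and 1 cell 30% of its TAC UMIs. Pdgfb and Cxcl12, ligands for mural cells and leukocytes, were among the 4 lower genes, with ratios of 0.0560 and 0.0912 for Pdgfb and 0.0447 and 0.0653 for Cxcl12. Pdgfd, another PDGF ligand, was at 404 and 194 CPM against 2112 and 1575.

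Receptors and regulators of TGF-beta, BMP and the mesenchymal transition were more often higher than lower, with 5 against 1 of 18 tested genes (22 listed). Over all tested genes 5.00% were higher and 8.62% lower in both libraries. Smad6, an inhibitory SMAD, stood at 398 and 689 CPM against 119 and 160, and Zeb2, a transcriptional repressor of epithelial genes, was 2.62-fold and 2.58-fold higher. Id1, a target of BMP signals, was the lower one, with ratios of 0.313 and 0.400. Of 19 tested matrix genes (24 listed), 3 were higher and 6 lower. Hmcn1, a large extracellular matrix protein, stood at 3453 and 3703 CPM against 260 and 392. The common basement membrane chain Col4a1 was lower, at 176 and 162 CPM against 760 and 632, the opposite of Col4a3.

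All 18 listed transcription factors were tested, and 4 were higher and 6 lower in both libraries. Foxp1, a forkhead repressor, stood at 2302 and 2329 CPM against 862 and 903. The lower ones included Meox2, with ratios of 0.0702 and 0.0312, and Tcf4, with 0.366 and 0.373. In the receptor lists, 0 genes were at least 2-fold higher in both libraries, while 3 of 13 tested Notch genes, 4 of 13 flow response genes and 4 of 9 VEGF and angiopoietin receptor genes were lower. The share over all tested genes was 8.62% lower, and counts on lists this short were not tested against it. Notch1 itself was 2.37-fold higher in Sham and 1.97-fold in TAC. Dll4, a Notch ligand of arteries, was among the lower Notch genes.

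The short lists gave few differences, beside shares over all tested genes of 5.00% higher and 8.62% lower in both libraries. Of 4 tested coagulation genes 1 was higher (Tfpi, the tissue factor inhibitor, 2.81-fold and 3.08-fold) and 1 lower (F8). Of 8 tested genes of leukocyte adhesion and inflammation 1 was higher (Vcam1), and Card9, an adaptor of innate immune signalling, had 0 UMIs in Sham and 2 in TAC endocardial cells. Otud1, a deubiquitinase, had 2 and 3 UMIs, too few for a comparison. None of 4 tested MHC genes passed the fold in both libraries. Among 10 tested glucocorticoid-induced genes 0 were higher and 2 lower, among 12 clock genes 2 and 1, and among 9 immediate-early genes 1 and 1.

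**Figure D3:**
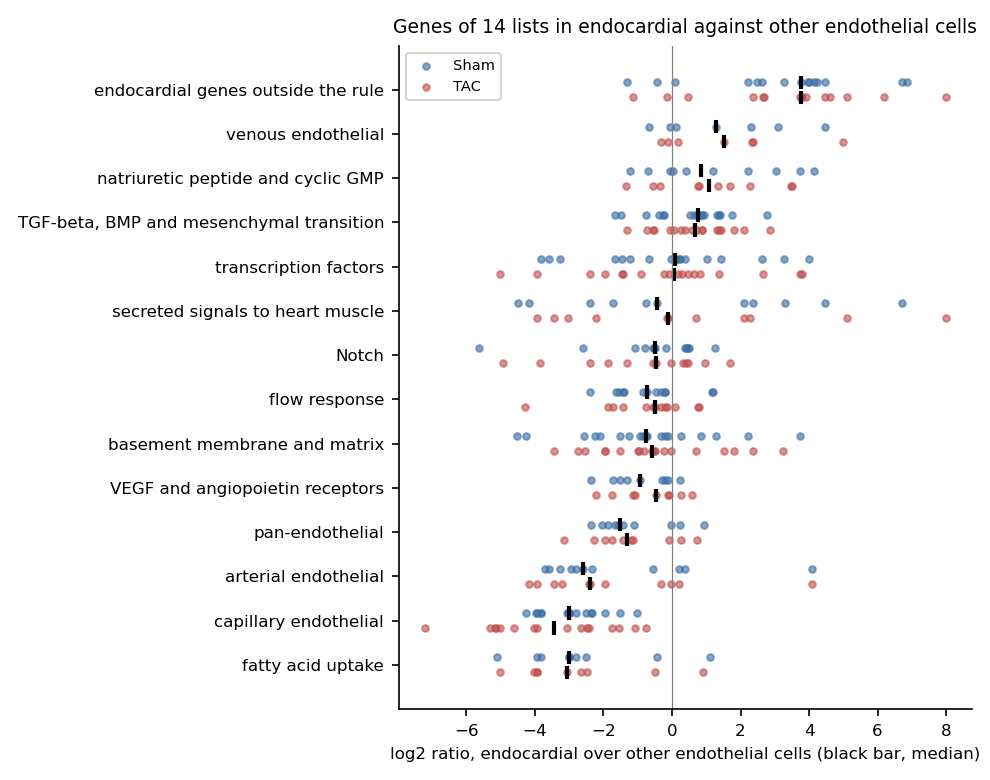
Each point is 1 tested gene of 14 lists, placed by its log2 ratio of endocardial over other endothelial cells in Sham (blue) and TAC (red), and the black bars are medians. The endocardial genes outside the rule lie mostly to the right of 0 (medians 3.75 and 3.77) and the capillary genes to the left (-3.00 and -3.45).

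The leading genes were also detected in more of the endocardial cells at equal depth. With every cell thinned to 1000 UMIs, which left out 27 Sham and 10 TAC endocardial cells and 420 and 459 others, Cdh11 was detected in 68.7% of Sham and 71.5% of TAC endocardial cells and in 0.792% and 0.767% of the others. Without thinning it was detected in 73.9% and 83.8% of endocardial cells. Nrg1 was detected in 29.9% and 34.8% of thinned endocardial cells against 0.679% and 0.597% of the others. Cd36 showed the opposite order, at 20.9% and 22.7% against 81.0% and 79.5%.

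The endocardial cells were not uniform among themselves. Clustered over both libraries, they fell into groups of 152, 175, 95 and 5 cells, which are given as a description. The 175 cells were led by Pdgfc, Nrg1, Bace2 and Fgf14, and held Nrg1 at 2411 CPM in Sham and 2517 in TAC, against 876 and 928 in the 152 cells and 136 and 186 in the 95 cells. Gpc6, a heparan sulfate proteoglycan, led the 152 cells, at 1910 and 2291 CPM against 714 and 157 in the 175 cells. The 95 cells were led by Igfbp5 and Kcnc2. The 5 cells were led by macrophage genes such as Cd163 and Mrc1. The group with the most cells differed between the libraries, as the group of 152 held 46.6% of Sham cells and the group of 175 held 46.2% of TAC cells. TAC and Sham were compared over all endocardial cells and not within these groups.

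The TAC and Sham endocardial cells were then compared, and with 1 library a group the condition cannot be told apart from the library. Of 4327 genes with at least 40 UMIs over both libraries, 153 (3.54%) were at least 2-fold higher in TAC and 68 (1.57%) at least 2-fold lower. These counts rest on the fold alone, whatever the interval. The TAC cells held more UMIs, so the filter of 40 UMIs over both libraries favoured genes higher in TAC. The median gene had a log2 ratio of 0.00. In the other endothelial cells of the same libraries 367 of 9891 tested genes (3.71%) were higher and 119 (1.20%) lower. Each group was 1 pooled library, so for the genes given with levels the ratio in other endothelial cells is given after that in endocardial cells.

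The 12 genes highest in TAC were Agrp, Nckap5, Tpm4, Clu, Nr4a1, Lysmd4, Hipk2, Tmtc4, Itgb3bp, Sorbs2os, Polb and Nhs. Agrp, a neuropeptide gene of the hypothalamus, stood at 12.8 CPM in Sham (4 UMIs) and 120 in TAC (73 UMIs), a ratio of 9.33 (3.49 to 35.2). It was 2.38-fold higher in the other endothelial cells too, and it overlaps Ctcf and Ripor1 on the opposite strand, so without stated strand counting its reads cannot be told from theirs. Nckap5, a microtubule-associated protein, stood at 89.8 and 413 CPM, a ratio of 4.60 (3.11 to 7.07) against 1.82 in other endothelial cells. A single cell held 32.1% of its Sham UMIs. Tpm4, a tropomyosin of the cytoskeleton, stood at 22.5 and 91.8 CPM, a ratio of 4.09 (1.86 to 10.6) against 1.25. Clu, the secreted chaperone clusterin, stood at 25.7 and 85.3 CPM, a ratio of 3.32 (1.57 to 8.10) against 0.810, and 9.95 after thinning. Lysmd4 and Sorbs2os, by contrast, had ratios of 3.19 and 2.74 in endocardial cells and 3.2 and 2.62 in other endothelial cells. With the rule applied after thinning, the ratio of Polb was 1.52 in place of 2.73 and that of Sorbs2os was 7.94, and Nhs went from 2.71 to 4.42 among cells with at most 1 UMI of the other cell types.

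The 12 genes lowest in TAC were Zbtb16, Fkbp5, Map3k6, Pear1, Mamld1, Ddrgk1, Tef, Ccnd3, Mcf2l, Tnnt2, Pwwp3a and Ppp4r1l-ps. Zbtb16, a zinc finger repressor that glucocorticoids induce, stood at 1273 CPM in Sham and 254 in TAC, a ratio of 0.200 (0.165 to 0.241). It was detected in 75.2% of Sham and 33.8% of TAC endocardial cells. In the other endothelial cells its ratio was 0.277 and over all barcodes 0.338. Pear1, a platelet and endothelial receptor, stood at 157 and 57.4 CPM, a ratio of 0.365 (0.230 to 0.575) against 0.831, but 0.550 after thinning and 0.6 with the rule applied after it. Mamld1, a transcriptional co-activator, stood at 247 and 95.1 CPM, a ratio of 0.385 (0.269 to 0.549) against 0.809. Ccnd3, a cyclin of the G1 phase, stood at 606 and 241 CPM, a ratio of 0.398 (0.318 to 0.496), and was 0.514 in other endothelial cells. Tnnt2, the cardiac troponin T of muscle, was at 590 and 238 CPM in endocardial cells, 702 and 390 in other endothelial cells and had a ratio of 0.643 over all barcodes. The call on Ddrgk1, at a ratio of 0.395, was lost with the rule applied after thinning, at 0.722.

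**Figure D4:**
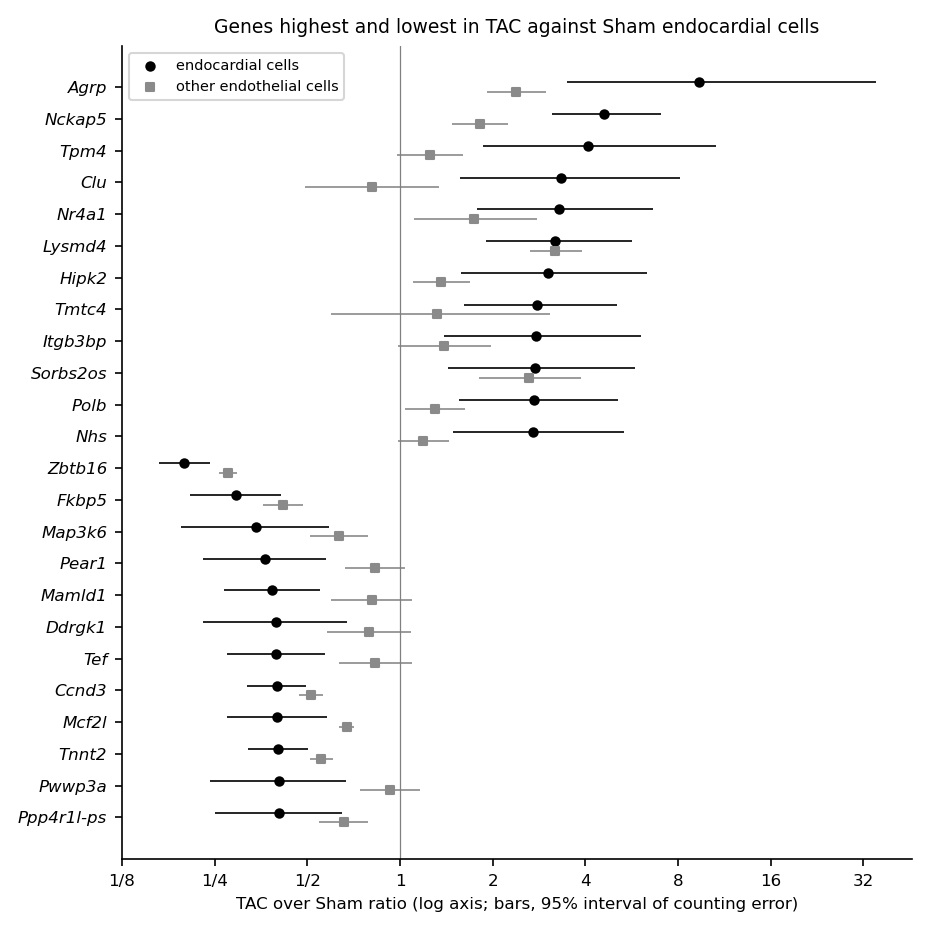
Ratios of TAC over Sham (log axis) with 95% intervals of counting error for the 12 genes highest and 12 lowest in TAC endocardial cells (black circles), with the other endothelial cells beside them (grey squares). Agrp lies farthest right at 9.33 and Zbtb16 farthest left at 0.200, and for Lysmd4 and Sorbs2os the grey squares lie close to the black circles.

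Glucocorticoid-induced genes stood lower in TAC. All 7 tested of the 11 listed had ratios below 1, and 3 passed the fold, beside 1.57% of all tested genes. The median log2 ratio was -0.90 beside 0.00 for all genes and -0.41 for the list in other endothelial cells. Fkbp5, a co-chaperone of the glucocorticoid receptor, stood at 317 CPM in Sham and 93.5 in TAC, a ratio of 0.295 (0.209 to 0.412) against 0.417 in other endothelial cells and 0.444 over all barcodes. Tsc22d3, the leucine zipper protein GILZ, stood at 199 and 107 CPM, a ratio of 0.536 (0.373 to 0.772) against 0.678, short of the fold, and 0.820 with the rule applied after thinning. Klf9, a Krüppel-like factor, stood at 282 and 230 CPM, a ratio of 0.814 (0.619 to 1.08) against 0.830.

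Part of the clock genes stood lower in TAC. Of 9 tested (17 listed), 4 were at least 2-fold lower in TAC and 0 higher, beside 1.57% and 3.54% of all tested genes. The median log2 ratio was -0.38 against -0.08 in other endothelial cells. With each cell thinned to 1000 UMIs, which left 4 genes tested, the median was 0.07. The 4 lower genes were the repressors Per1 and Per2 and the PAR bZip output factors Tef and Hlf. Per1, also on the glucocorticoid list, stood at 99.4 and 47.6 CPM, a ratio of 0.478 (0.278 to 0.821) against 0.415, but 0.585 after thinning. Per2 stood at 89.8 and 26.2 CPM, a ratio of 0.292 (0.148 to 0.559) against 0.605. Tef stood at 228 and 90.2 CPM, a ratio of 0.396 (0.273 to 0.571) against 0.830, and Hlf had 39 UMIs in Sham and 37 in TAC, a ratio of 0.485 (0.301 to 0.781) against 0.796. With a marker sum of at least 2 the ratio of Hlf was 0.521, short of the fold. The activators did not pass the fold, with Clock at 141 and 156 CPM, a ratio of 1.10 against 1.11, and Arntl, which encodes BMAL1, at 73.8 and 113, a ratio of 1.53 (0.945 to 2.58) against 0.891. Per3, a further period gene, stood at 41.7 and 45.9 CPM, and its interval of 0.552 to 2.32 spans 1, against a ratio of 1.0 in other endothelial cells. By the study's methods, animal work was done mostly in the morning, at the same time for all groups. Those methods describe isoproterenol and bone marrow transplant models and no TAC surgery, so the statement may not cover these libraries. The hour at which these hearts were taken is not given in the sources used here, and its part in these values was not tested.

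Promoter sequences are printed for the lower clock and glucocorticoid genes that hold an E-box (CACGTG, the same on both strands), the element that CLOCK and BMAL1 bind. They are 250 bases before a RefSeq transcript start on GRCm38.p6, in the gene's direction, with the E-box in capitals.
Per1, chr11:69098699-69098948, plus strand: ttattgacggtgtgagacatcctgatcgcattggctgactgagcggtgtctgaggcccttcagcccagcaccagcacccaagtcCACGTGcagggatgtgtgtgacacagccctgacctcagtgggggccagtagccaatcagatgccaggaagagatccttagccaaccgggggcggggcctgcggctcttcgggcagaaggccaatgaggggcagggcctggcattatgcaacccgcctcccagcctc
Tef, chr15:81802423-81802672, plus strand: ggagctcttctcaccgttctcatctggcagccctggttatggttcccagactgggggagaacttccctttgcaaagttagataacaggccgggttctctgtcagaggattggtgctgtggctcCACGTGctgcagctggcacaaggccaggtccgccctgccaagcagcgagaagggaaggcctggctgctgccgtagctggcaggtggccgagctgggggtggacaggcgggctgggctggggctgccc
Tef, chr15:81811164-81811413, plus strand: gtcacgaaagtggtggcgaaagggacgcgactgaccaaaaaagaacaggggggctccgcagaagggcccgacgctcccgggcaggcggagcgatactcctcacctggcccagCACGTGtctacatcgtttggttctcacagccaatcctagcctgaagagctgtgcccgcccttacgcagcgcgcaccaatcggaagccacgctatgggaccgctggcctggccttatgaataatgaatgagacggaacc
Fkbp5, chr17:28486150-28486399, minus strand: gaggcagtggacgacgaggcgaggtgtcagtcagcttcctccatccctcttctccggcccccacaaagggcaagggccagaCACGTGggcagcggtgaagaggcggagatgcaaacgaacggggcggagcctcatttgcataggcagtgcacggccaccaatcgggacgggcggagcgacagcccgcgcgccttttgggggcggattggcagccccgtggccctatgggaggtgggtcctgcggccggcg

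The E-box began 166 bases before the start in Per1, 127 and 138 bases before in the Tef windows and 169 bases before in Fkbp5. Per2 and Zbtb16 were not searched. No E-box was found in the second Per1 window or in the windows of Hlf, Dbp and Per3. In windows of 300 bases around each start, which reach 50 bases past it, 2349 of 32851 (7.15%) held the motif, as did at least 1 window for 2187 of 27025 genes (8.09%). Of the clock genes 5 of 14 found in the table held it, and of the glucocorticoid list 3 of 10. The motif was chosen after the values were seen, and a match describes letters only.

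The tested immediate-early genes and the flow-response factor Klf2 stood higher in TAC at low counts. Of 4 tested immediate-early genes (13 listed), 3 were at least 2-fold higher and all 4 lay above 1. The UMI filter favoured genes higher in TAC and left out the rest of the list, so these counts cannot show a shift of the list. Without the filter, all 13 summed to 282 CPM in Sham and 528 in TAC, against 457 and 497 in other endothelial cells. That sum includes the 4 tested genes. Nr4a1, an orphan nuclear receptor, stood at 38.5 CPM in Sham (12 UMIs) and 126 in TAC (77 UMIs), a ratio of 3.28 (1.78 to 6.63) against 1.74 in other endothelial cells. Dusp1, a MAP kinase phosphatase, stood at 22.5 and 65.6 CPM, a ratio of 2.92 (1.30 to 7.73) against 1.35, but 1.70 for means over cells. Btg2, an antiproliferative gene, stood at 25.7 and 57.4 CPM, a ratio of 2.24 (1.02 to 5.58) against 1.18. Klf2, a transcription factor induced by laminar flow, stood at 86.6 and 207 CPM, a ratio of 2.39 (1.57 to 3.76) against 1.57. When the rule was applied after thinning to 1000 UMIs, the ratio of Klf2 was 1.32 and that of Btg2 1.38.

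**Figure D5:**
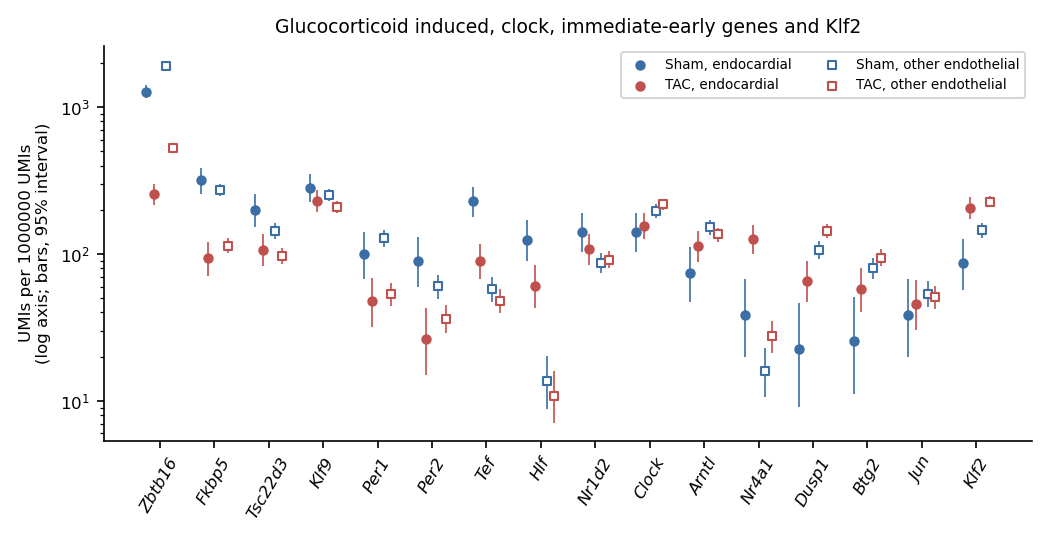
Levels (log axis, UMIs per 1000000 UMIs) with 95% Poisson intervals of 15 glucocorticoid-induced, clock and immediate-early genes and of Klf2, for endocardial (filled) and other endothelial cells (open) in Sham (blue) and TAC (red). Zbtb16, Fkbp5, Per2 and Tef lie lower in the TAC endocardial cells and Nr4a1 and Klf2 higher, while the Clock values overlap.

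In the remaining pathways few genes passed the fold, beside 3.54% of all tested genes higher in TAC and 1.57% lower. Of the endocardial genes outside the rule, 14 of 16 tested had TAC over Sham ratios above 1. Their median log2 ratio was 0.24, beside 0.00 for all genes and 0.07 for the list in other endothelial cells. Only Plvap of them, the diaphragm protein of fenestrae, passed the fold, at 73.8 and 177 CPM, a ratio of 2.40 (1.52 to 3.95) against 1.64. Among 15 tested matrix genes, Fn1 (fibronectin, 54.5 and 116 CPM) and Sparc (44.9 and 105 CPM) were higher and 0 were lower. The ratio of Fn1 was 2.14 against 1.09 in other endothelial cells, but 1.64 with the rule applied after thinning, and that of Sparc was 2.34 against 1.14. S1pr1, the sphingosine phosphate receptor of endothelium, stood at 77.0 and 161 CPM, a ratio of 2.09 against 1.21, but 1.56 for means over cells. Pdgfd was the 1 of 9 tested muscle signals that was lower, with a ratio of 0.479 (0.369 to 0.621) against 0.746. The call on Pdgfd was lost under 4 alternatives, with ratios from 0.513 to 0.760. Edn1, which encodes endothelin-1, stood at 70.5 and 44.3 CPM, a ratio of 0.628 (0.344 to 1.16) against 1.66, and 1.03 among cells with at most 1 UMI of the other cell types. Of 9 tested natriuretic peptide and cyclic GMP genes and of 15 tested transcription factors, 0 passed the fold in either direction. Lists this short would hold few such genes at the shares over all genes.

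Markers of other cell types were summed over the endocardial cells. The rule itself capped 2 of the 9 cardiomyocyte, 3 of the 8 fibroblast and 4 of the 7 lymphatic markers, so those sums are in part set by it. The 9 cardiomyocyte markers summed to 3264 CPM in Sham and 2219 in TAC endocardial cells, with 0 of them undetected, against 4231 and 3305 in other endothelial cells. The 8 fibroblast markers summed to 577 and 692 CPM, with 1 undetected in each library, and were lower in other endothelial cells, at 312 and 391 CPM. The 6 pericyte markers summed to 378 CPM in Sham and 144 in TAC, against 330 and 378 in other endothelial cells. The 7 macrophage markers summed to 96.2 and 118 against 207 and 243, and the 7 lymphatic markers to 128 and 133 against 86.2 and 96.5. The 6 T-cell markers stood at 19.2 and 1.64 CPM with 5 undetected in each library, and smooth muscle, B-cell, Schwann, mesothelial and cycling markers were each at or below 51.3 CPM. The muscle and pericyte sums were lower in TAC, as were Tnnt2 and the pericyte gene Abcc9. Both genes are among the summed markers, with Abcc9 at 173 CPM in Sham and 24.6 in TAC, so these drops are not independent. The part of muscle and pericyte RNA in the values of Tnnt2 and Abcc9 was not tested.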

How the data were processed

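Single-cell RNA was measured with a droplet 3-prime kit in 1 pooled library a group. The deposited values are raw UMI counts per gene and barcode, which the authors made with Cell Ranger (version 7.1.0 in the submitters' processing notes) and deposited as filtered matrices of 9935 and 9932 barcodes. The genome build, strand setting and treatment of intronic reads are not given in the sources used here. Of 55357 gene identifiers, 52081 (94.1%) matched GENCODE M21, which was used for overlapping genes. Barcodes with at least 200 genes were kept, and doublets were scored with Scrublet in scanpy 1.11.5 (459 and 479 called, with 5 and 7 endocardial) but removed only as an alternative. Python 3.11.15, numpy 2.4.6, scipy 1.17.1, pandas 2.3.3 and matplotlib 3.10.9 were used.

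Counts were summed over cells. Genes needed 40 UMIs, over both cell groups in each library or over both libraries, and the 17 rule genes were left out. Levels carry exact Poisson intervals, ratios exact conditional binomial intervals and shares Clopper-Pearson intervals, all at 95%. A gene was counted as higher at a ratio of at least 2 and as lower at a ratio of at most 0.5, whatever its interval, and a group at 0 was set to a floor of 3 counts. With 1 library a group no p-value was computed. On simulated counts, 100% of 200 genes changed 4-fold were recovered between TAC and Sham, and 56 of 4069 unchanged genes (1.38%) passed 2-fold. Between the cell groups of Sham, 98.5% of 197 changed genes were recovered, and 297 of 7133 unchanged genes (4.16%) passed 2-fold. The simulated counts varied by counting error only, with no spread between cells or hearts. Changed genes were drawn from those with at least 40 UMIs in the reference group alone. Recovery of genes with fewer UMIs there, or of smaller changes, was not simulated.

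Named genes were the 15 highest and 10 lowest between cell groups, the 12 highest and 12 lowest between libraries (60 UMIs, interval off 1, no cell above 25% of the UMIs of the higher library), leaving out mitochondrial, ribosomal, haemoglobin and unnamed genes, and up to 6 genes of each list with the most UMIs. Genes named beyond these were chosen after their values were seen. The rule, the cells and the gene lists were chosen with earlier results of these data known. Alternatives changed the gene and mitochondrial filters, the marker sum, the UMI minimum, doublets and depth.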

Additional observations from a re-analysis of the deposited data

Results flagged for a closer look

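Between TAC and Sham, 38 of 4327 tested genes (0.878%) had opposite directions in the endocardial and the other endothelial cells with both intervals off 1, of which 9 passed 2-fold in endocardial cells. These genes are given because the directions were opposite, and the difference between the cell groups was not tested. Higher in TAC endocardial cells and lower in TAC other endothelial cells were Wdr41 (ratio 3.24 against 0.667), Cwc22 (2.94 against 0.619), Notch2, a Notch receptor (2.94 against 0.640), Fbxl4 (2.67 against 0.707), Aqp1, a water channel (2.40 against 0.886), Fbh1 (2.35 against 0.718) and Stat6, the transcription factor of interleukin-4 signals (2.15 against 0.657). Lower in TAC endocardial cells and higher in the others were Abcc9, a potassium channel subunit of pericytes (0.142 against 1.53), and Dach1, a transcriptional cofactor of vessels (0.437 against 1.09). For Abcc9, 1 cell held 27.8% of the Sham UMIs. Its ratio was 0.536 among cells with at most 1 UMI of the other cell types, a gene set that includes Abcc9 itself. That setting removes cells by their Abcc9 UMIs, so it is no independent check of this ratio. The processing alternatives were run for Notch2, Aqp1 and Abcc9 of these genes, and the ratio of Aqp1 was 1.98 with the rule applied after thinning.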

How the results depend on the processing

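No paired analysis was possible because each group was 1 library, and leaving out a library was not possible for the same reason. The endocardial share ranged from 1.34% to 1.80% in Sham and 2.42% to 2.88% in TAC over the settings, and its ratio from 1.60 to 1.81; the lowest Sham share, 1.34%, came with a marker sum of at least 5. Counts of genes depended on depth. Between cell groups, genes higher in both libraries numbered 203 at 100 UMIs, 211 with cells thinned to 1000 UMIs and 190 with the rule applied after thinning (added after seeing the data), and lower genes 400 at 100 UMIs. Between libraries, higher and lower genes numbered 465 and 250 at 20 UMIs, 24 and 12 at 100 UMIs, 58 and 21 after thinning, and 61 and 28 with the rule after thinning, with 108 lower genes for means over cells. The endocardial over other endothelial ratio of Adgre1, a macrophage gene, went from 0.416 to 1.11 in the TAC library without the called doublets. The 7 macrophage markers together held 72 UMIs in TAC endocardial cells. Between libraries, the ratio of Zbtb16 ranged from 0.192 to 0.222, Fkbp5 from 0.225 to 0.310, Tef from 0.382 to 0.473 and Agrp from 7.67 to 11.4. The median of the clock list also turned sign, to 0.07 with 4 genes tested after thinning, and the glucocorticoid median ranged from -1.27 to -0.72. No immediate-early gene could be tested at 100 UMIs or after thinning. The causes were not tested.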

Other observations

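Imprinted genes, a group chosen after their values were seen and given with no test, included several at higher levels in endocardial than in other endothelial cells. Besides H19 and Plagl1, Airn, the antisense transcript of the Igf2r locus, stood at 4839 CPM in Sham and 4596 in TAC, against 2176 and 1831. Igf2r, the receptor that clears IGF2, stood at 497 and 895 CPM against 233 and 363, but the genes overlap and strand counting is not stated, so their reads cannot be told apart. Kcnq1ot1, an imprinted antisense RNA, was 2.46-fold and 2.07-fold higher, and Peg3, a zinc finger gene, 2.18-fold and 2.24-fold. Others lay near or below 1, such as Impact (1.13 and 1.10), Cdkn1c, a cell cycle inhibitor (0.712 and 0.990), Meg3 (0.839 and 0.690) and Grb10 (0.661 and 0.826).

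Further genes chosen after their values were seen also had high ratios in both libraries. Col4a4, the partner chain of Col4a3 in collagen IV, stood at 638 and 579 CPM against 18 and 15. Hand2, a transcription factor of the heart, was 25.5-fold and 36.4-fold higher.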
